A study of Callithrix jacchus with 3 samples.

Results

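The spermatogonial genes GFRA1, ZBTB16, SALL4, DMRT1, STRA8 and KIT were described in adult testis of Callithrix jacchus, the common marmoset, a small South American monkey. These 6 genes were chosen by name as markers of undifferentiated or differentiating spermatogonia. Their level was the sum of the protein-coding transcript entries carrying each symbol in the RNA-seq table, in RPKM, reads scaled to transcript length and to the number of mapped reads. All 6 had an entry, among 12199 protein-coding gene names in the table. The table was the RNA-seq part of a study that also sequenced testis small RNA and RNA recovered with the PIWI protein MARWI, which were not used here. Per the labels, the RNA came from wild-type adult testes of 2 replicates, with ages of 41 and 51 months given, and the values were deposited as 1 column. No spread between animals, test or comparison of ages was therefore possible, and every ratio below is between values of that column. The number of reads behind each value is unknown, and how the replicates were joined is not given in the sources used here.

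Spermatogonia are the germ cells that line the base of the seminiferous tubule. Undifferentiated spermatogonia, which include the stem cells, respond to the growth factor GDNF from somatic cells through the co-receptor GFRA1 and the kinase RET, and carry the zinc-finger transcription factors ZBTB16 (also called PLZF) and SALL4. Retinoic acid moves them to differentiation, when the receptor kinase KIT appears, and later to meiosis, which STRA8 helps to start. The transcription factor DMRT1 is known in spermatogonia of both stages and in Sertoli cells, so it was placed with neither side.

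DMRT1 stood at 7.60 RPKM and the other genes were all under 1 RPKM. GFRA1 stood at 0.854 RPKM and ZBTB16 at 0.810 RPKM, followed by STRA8 at 0.463, KIT at 0.290 and SALL4 at 0.246 RPKM. The highest gene, DMRT1, was thus 8.90 times the next one, GFRA1, whereas the remaining genes lay within a 3.47-fold range. Without a spread, the order of close neighbours cannot be called: GFRA1 was 1.05 times ZBTB16 and KIT was 1.18 times SALL4. STRA8 was 1.60 times KIT. DMRT1 made up 74.1% of the summed level of 10.3 RPKM of the 6 genes. In whole testis, fewer cells of a type and less RNA per cell cannot be told apart.

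**Figure D1:**
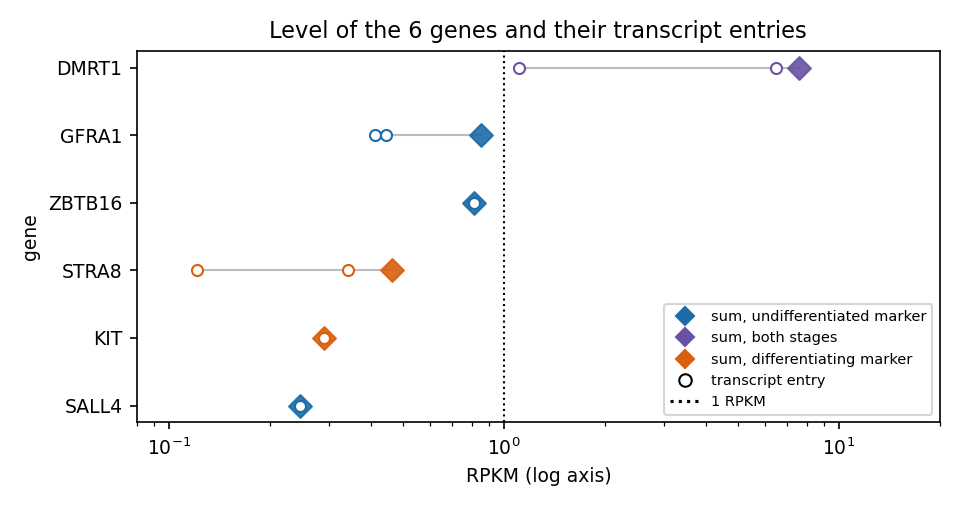
Level of each gene in RPKM (x axis, log scale) with its transcript entries as open circles and their sum as a diamond, coloured by the stage the gene marks. DMRT1 alone lies to the right of the dotted line at 1 RPKM, and SALL4, at 0.246 RPKM, is the lowest.

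Against the rest of the table, 5 of the 6 genes lay below the median gene, at 2.44 RPKM, and DMRT1 lay above it. A level of 1 RPKM or more was reached by 1 of the 6, where 63.8% of all named protein-coding genes reached it. The same gene, DMRT1, was the 1 member at or above 5 RPKM, a level reached by 35.9% of genes, and all 6 were above 0.1 RPKM, as were 88.5% of genes. DMRT1 ranked 3320 of 12199 from the top, above 72.8% of genes. GFRA1 was higher than 33.7% of genes and ZBTB16 higher than 32.9%. The remaining ranks were lower, with 26.1% of genes below STRA8, 21.0% below KIT and 19.5% below SALL4. The median gene was 2.85 times GFRA1 and 9.91 times SALL4, and DMRT1 was 3.12 times the median gene.

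**Figure D2:**
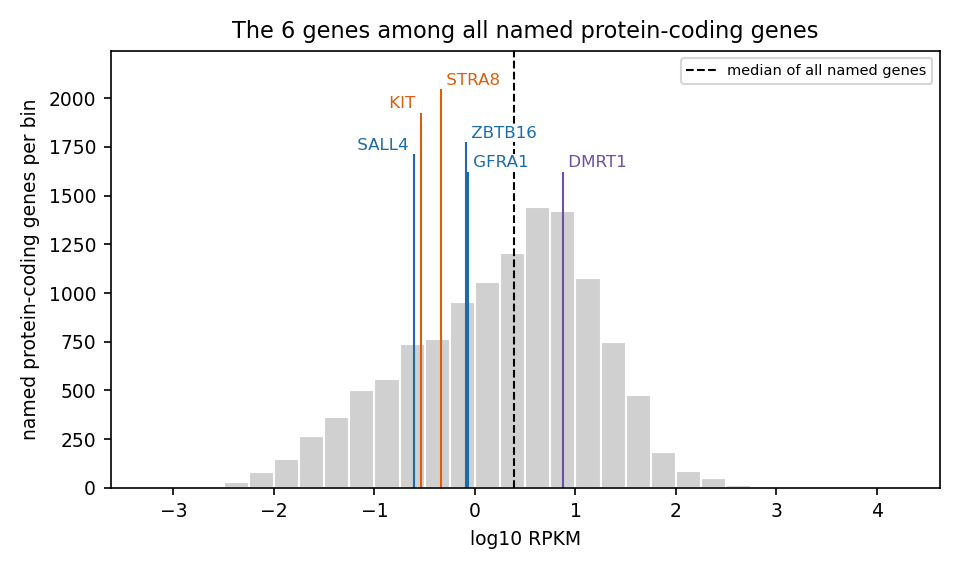
Histogram of log10 RPKM (x axis) of the 12199 named protein-coding genes (y axis, genes per bin), with a vertical line for each of the 6 genes and a dashed line for the median of 2.44 RPKM. DMRT1 lies to the right of the median line and the other 5 genes to its left.

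The undifferentiated markers GFRA1, ZBTB16 and SALL4 were then set against the differentiating markers KIT and STRA8. The median was 0.810 RPKM for the 3 undifferentiated and 0.376 RPKM for the 2 differentiating markers, a ratio of 0.464. The sides were mixed in order. In 4 of the 6 possible pairs the undifferentiated marker was higher, and in the other 2 it was SALL4 that lay below both KIT and STRA8. The direction also depended on which genes stood for each stage. With the longer lists added, the medians were 0.528 RPKM over 12 undifferentiated and 3.25 RPKM over 9 differentiating genes, and the ratio turned to 6.14. The ratio thus lay on either side of 1 depending on the genes chosen.

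The other undifferentiated markers varied widely. Of 21 listed, 9 had a named entry, from 0.0178 to 9.46 RPKM. A level of 1 RPKM was reached by 4 of the 9, and by 63.8% of all named genes. ITGA6, a laminin-binding integrin that somatic cells carry too, stood at 9.46 RPKM. ETV5, a transcription factor induced by GDNF, stood at 6.20 RPKM, and PIWIL4, a PIWI protein, at 1.52 RPKM. The median of the 9 genes was 0.144 RPKM, which is lower than each of GFRA1, ZBTB16 and SALL4. Of these 9, 5 lay below SALL4.

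The other differentiating markers were higher than KIT and STRA8. Of 10 listed, 7 had a named entry and all 7 were above 1 RPKM, where 63.8% of all named genes reached that level. The 7 ranged from 2.41 to 52.3 RPKM, with a median of 4.89 RPKM. The homeobox gene RHOXF1 stood at 52.3 RPKM, DMRTB1, a relative of DMRT1 known from the exit of spermatogonia to meiosis, at 23.7 RPKM and the meiotic cohesin REC8 at 5.55 RPKM. REC8 was 12.0 times STRA8. REC8 and the proliferation gene MKI67, at 4.89 RPKM, are also known from other cells than spermatogonia, so this list is broader than its name.

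**Figure D3:**
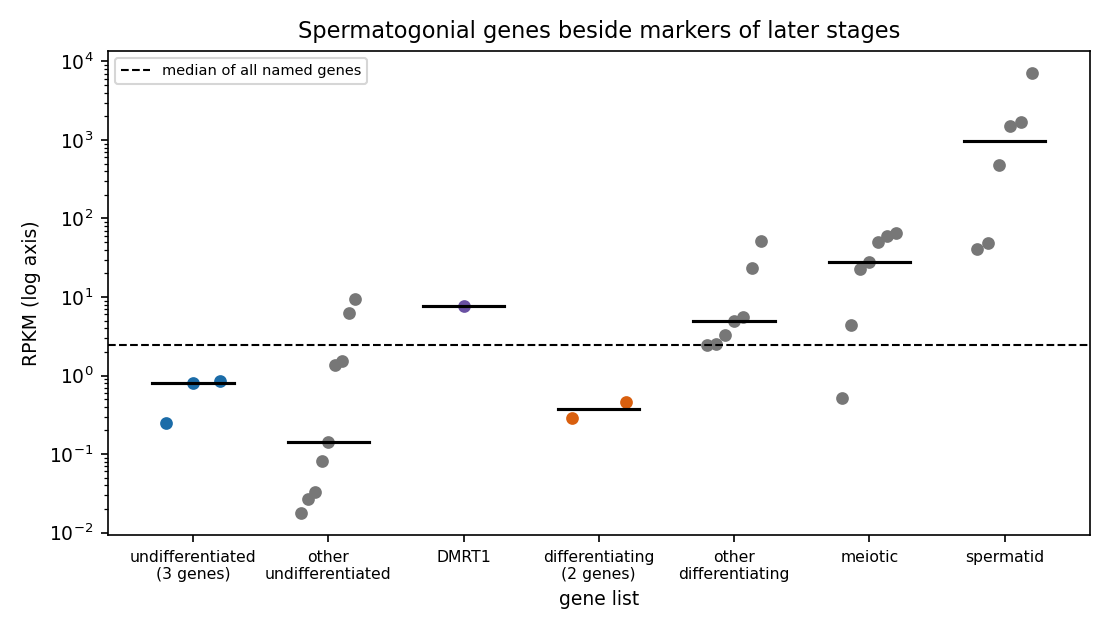
RPKM (y axis, log scale) of the genes with an entry in each list, with each point a gene and each bar the median of its list. The 3 undifferentiated markers and KIT and STRA8 lie below the dashed line of the median gene at 2.44 RPKM, whereas the spermatid genes start at 40.8 RPKM.

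General germ-cell, meiotic and spermatid genes were set beside the 6 genes in the same column. The vasa helicase DDX4, found in germ cells of many stages, stood at 27.0 RPKM, 3.55 times DMRT1, 31.6 times GFRA1 and 58.2 times STRA8. MAEL, of the piRNA pathway, was higher still at 43.0 RPKM. Of 9 listed meiotic genes 7 were found in the table, with a median of 27.5 RPKM. Of the 7, 6 were at or above 1 RPKM, where 63.8% of all named genes were. The 7 meiotic genes summed to 229 RPKM and were led by the chromosome axis proteins HORMAD1 at 65.3 and SYCP2 at 59.2 RPKM. SYCP1, a component of the synaptonemal complex, was 108 times STRA8, and MEIOC, a regulator of early meiosis, was 59.5 times STRA8. The meiotic gene SPO11, which makes the breaks that start recombination, was close to the summed STRA8 at 0.522 RPKM and below ZBTB16. It lay below the summed level of GFRA1 but above either GFRA1 entry alone, at 0.411 and 0.444 RPKM. The recombinase DMC1, at 4.35 RPKM, was below DMRT1. The 6 spermatid genes with an entry, of 8 listed, had a median of 982 RPKM and a sum of 10909 RPKM, with protamine PRM1 at 7177 RPKM and the transition protein TNP1 at 1678 RPKM.

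GFRA1 is the GDNF-binding co-receptor and needs RET to signal. It had 2 transcript entries on chromosome 12, from 103773515 to 104150806 on the minus strand, with the gene identifier ENSCJAG00000019380. The shorter entry stood at 0.411 RPKM and the longer at 0.444 RPKM, so neither predominated. The longer entry was overlapped over 60.1 kb by CCDC172 on the opposite strand, at 0.420 RPKM, and the shorter entry was not. This overlap is between genomic spans, and whether it touches exons of GFRA1 was not tested. The library protocol was directional per the labels, but whether strand was used in counting is not given in the sources used here. Any reads from exons in the shared stretch therefore cannot be assigned with certainty.

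The partners of GFRA1 were lower than GFRA1 itself. RET stood at 0.0267 RPKM and the ligand GDNF at 0.0275 RPKM. GFRA1 was 32.0 times RET and 31.1 times GDNF. Only 3.58% of named genes lay below RET and 3.71% below GDNF, so both were near the lower end of the table. The related co-receptors, which bind other members of the ligand family, were closer, with GFRA2 at 0.531 RPKM and GFRA3 at 0.692 RPKM. GFRA1 was 1.61 times GFRA2 and 1.24 times GFRA3. GFRA2 and GFRA3 had 1 entry each, and either GFRA1 entry alone, at 0.411 or 0.444 RPKM, was below both. This order therefore depends on summing the entries of GFRA1.

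ZBTB16 represses differentiation in spermatogonia and is also present in several somatic tissues. Its only entry lay on chromosome 11, from 11594272 to 11797842 on the plus strand (identifier PR0009.59170), at 0.810 RPKM. Like GFRA1, it is a long gene: its entry spans 204 kb, longer than 94.2% of named genes, and that of GFRA1 spans 377 kb, longer than 98.4%. The median span was 23.7 kb. RPKM values are scaled to transcript length, not to this genomic span.

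SALL4 is a zinc-finger factor of early embryonic and germ cells. Its only entry (identifier ENSCJAG00000000591) lay on chromosome 5, from 45741617 to 45757945 on the minus strand, at 0.246 RPKM. Low as it was, it exceeded the paralogs that had an entry. SALL1, known from kidney development, stood at 0.0408 RPKM and SALL3 at 0.0740 RPKM. SALL4 was 6.04 times SALL1 and 3.33 times SALL3. SALL2 had no named entry.

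DMRT1 belongs to the family of DM-domain transcription factors. It had 2 entries on chromosome 1, from 102470491 to 102594414 on the plus strand (identifier PR0009.16391), and they were unequal. The shorter one, of 75.2 kb, stood at 6.49 RPKM and held 85.4% of the gene's level, and the longer one stood at 1.11 RPKM. Both start at the same coordinate and differ at their far end. Either entry alone exceeded each of the other 5 genes.

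The other DM-domain genes lay on both sides of DMRT1. DMRTB1 was 3.11 times DMRT1, and DMRTC2, at 10.04 RPKM, was 1.32 times DMRT1. The next genes along the chromosome were much lower. DMRT3, 7.90 kb away, stood at 0.904 RPKM and DMRT2 beyond it at 1.11 RPKM, on the same strand. DMRT1 was 8.41 times DMRT3 and 6.85 times DMRT2. DMRTA2 stood at 0.602 RPKM and DMRTA1 at 0.0241 RPKM.

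**Figure D4:**
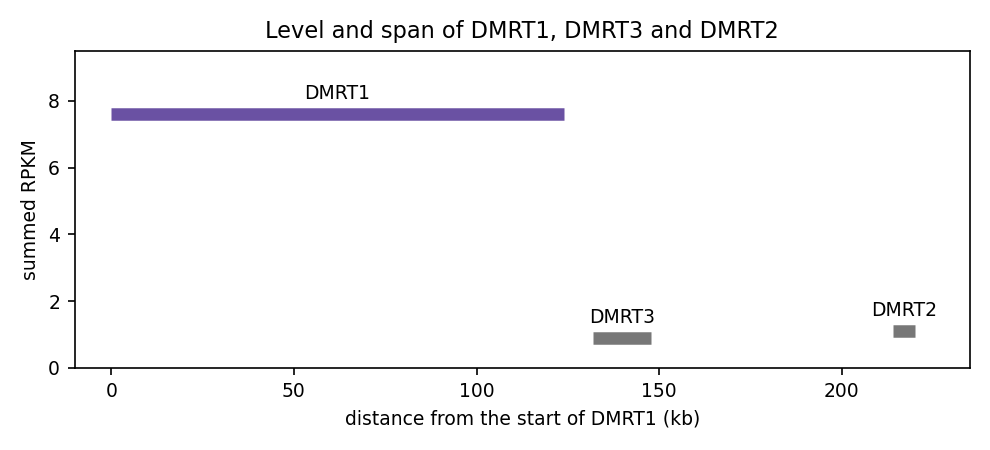
Summed RPKM (y axis) of the 3 neighbouring DM-domain genes, each drawn as a bar over its span, with distance from the start of DMRT1 in kb on the x axis. DMRT1 stands at 7.60 RPKM, and DMRT3 and DMRT2 lie at 0.904 and 1.11 RPKM within the same 220 kb.

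KIT is the receptor for stem cell factor (KITLG) and marks spermatogonia that have begun to differentiate. Its only entry, named KIT with a species suffix (identifier PR0009.260000), lay on chromosome 3, from 138848398 to 138932796 on the minus strand, at 0.290 RPKM. KITLG had no named entry, so ligand and receptor could not be set side by side. Among receptors of its structural family, PDGFRA, the next named gene on the same strand 369 kb away, stood at 5.46 RPKM, 18.8 times KIT. FLT3, at 0.303 RPKM, and PDGFRB, at 0.252 RPKM, were near the level of KIT, and CSF1R had no named entry.

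STRA8 is induced by retinoic acid before meiosis. It had 2 entries on chromosome 8, from 110932879 to 110960240 on the minus strand (identifier PR0009.388688). The shorter one stood at 0.342 RPKM and the longer one at 0.121 RPKM, a ratio of 2.83. Their sum of 0.463 RPKM placed STRA8 below all 3 retinoic acid receptors.

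Of 19 listed retinoic acid genes, 13 had an entry and 8 reached 1 RPKM, a level reached by 63.8% of all named genes. The median of the 13 was 1.06 RPKM, and that of all named genes was 2.44 RPKM. STRA8 lay below 9 of the 13 and above 4. ALDH1A1, an enzyme that makes retinoic acid, stood at 13.8 RPKM, and RDH10, an enzyme of the step before it, at 3.95 RPKM. Among the receptors, RARA stood at 6.11 RPKM, 13.2 times STRA8, RARB at 2.97 RPKM and RARG at 1.80 RPKM. Of the enzymes that degrade retinoic acid, CYP26B1 stood at 1.01 RPKM, CYP26C1 at 0.114 RPKM and CYP26A1 at 0.0635 RPKM. The target STRA6, a retinol transporter, stood at 0.478 RPKM, close to STRA8.

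**Figure D5:**
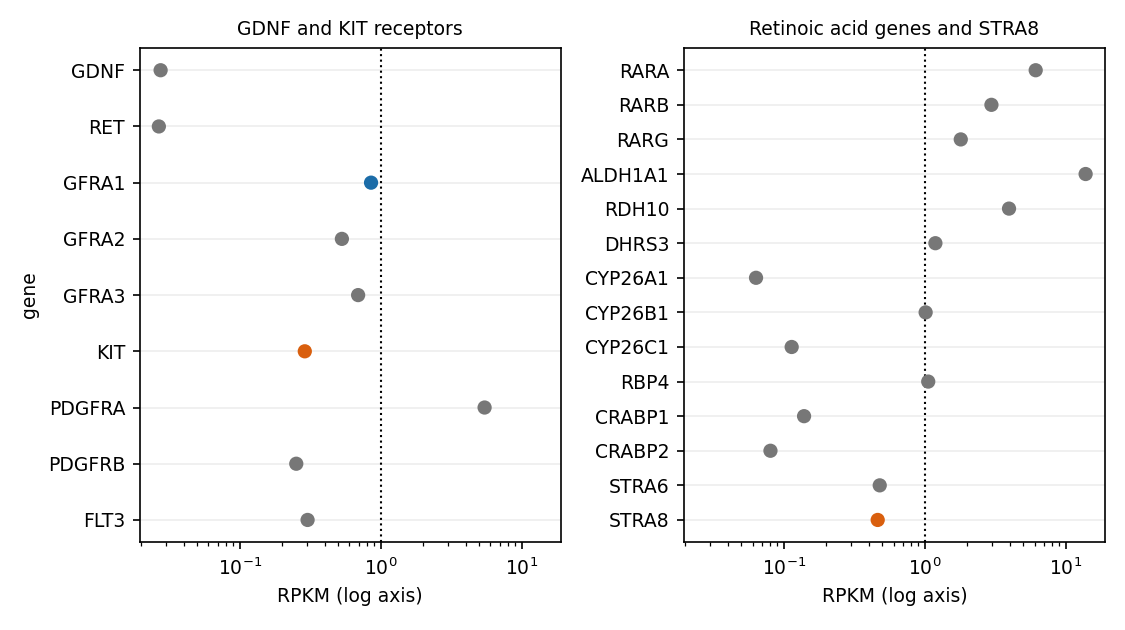
RPKM (x axis, log scale) of genes of the GDNF and KIT receptor families (left) and of the retinoic acid pathway with STRA8 (right), with a dotted line at 1 RPKM and the spermatogonial genes coloured. RET and GDNF lie furthest left in the left panel, at 0.0267 and 0.0275 RPKM, and the retinoic acid receptors all lie to the right of STRA8.

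Of the 16 listed genes of the GDNF and KIT niche, 7 had an entry. Of these, 1 reached 1 RPKM, where 63.8% of all named genes did. That gene was INHBA, a subunit of activin, at 1.14 RPKM. It was followed by the chemokine receptor CXCR4 at 0.889 RPKM and GFRA3. The median was 0.531 RPKM. The 9 genes without a named entry are not shown to be unexpressed, since the table lists only values above 0 and 16.4% of its protein-coding entries could not be given a gene symbol.

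Some of the 6 genes are known outside the germ line, and some markers of those cells had an entry. Sertoli cells, which contain DMRT1, were marked by CLDN11 at 27.7 RPKM and WT1 at 3.68 RPKM. DMRT1 was 2.07 times WT1, and the 4 Sertoli genes with an entry, of 7 listed, summed to 33.4 RPKM. AMH, a gene of immature Sertoli cells, stood at 0.148 RPKM. Leydig and mast cells can carry KIT. The 3 Leydig genes with an entry, of 5 listed, summed to 414 RPKM, led by INSL3 at 404 and CYP11A1 at 5.63 RPKM. The 3 mast-cell genes with an entry, of 5 listed, were lower, with HPGDS at 0.693 and CPA3 at 0.149 RPKM and a sum of 0.890 RPKM. Among other somatic cells, peritubular genes were led by ACTA2 at 19.4 and CNN1 at 2.21 RPKM and summed to 21.6 RPKM over the 2 of 4 with an entry. Macrophage genes were led by CD163 at 2.13 and CD68 at 0.913 RPKM and summed to 3.05 RPKM over 2 of 4. The 3 endothelial genes had no named entry. The part of these cells in the levels of DMRT1 and KIT was not tested.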

How the data were processed

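Testis RNA-seq of 1 deposited column was used. The authors deposited RPKM values per transcript, above 0 only, with no counts. Bowtie, TopHat and Cufflinks are listed in the submitters' processing notes, with neither version nor role. The genome build is not given in the sources used here, and coordinates are those of the deposited table. Without counts the depth is unknown.

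LOC names were turned into symbols with RefSeq's gene list for calJac240_pri, from which no coordinates were taken. It matched 6593 of 18365 entries and gave DMRT1 and STRA8. A species suffix was removed from 31 entries where the rest was a RefSeq symbol, which gave KIT. Another 48 entries were named by Ensembl identifier. Protein-coding entries of 1 symbol were summed. The 12199 names include unresolved ones. Summing and ranking were tested on simulated tables.

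The genes and lists were chosen with earlier results of these data known. Named were all 6 genes, the 3 highest genes of each spermatogonial or pathway list, all relatives with an entry, RET, GDNF and KITLG, and the 2 highest of each cell type list. Others were named after their values were seen: MKI67, CYP26A1, CYP26B1, CYP26C1, RARB, RARG, STRA6, MEIOC, SYCP1, SPO11, DMC1, AMH and CCDC172. A further gene was left out of the retinoic acid list and its counts, and is not reported here. Planned miRNA counts were not made, because mature sequences were not used here. Values were computed in Python 3.11.15 with pandas 2.3.3 and numpy 2.4.6 and plotted with matplotlib 3.10.9.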

Additional observations from a re-analysis of the deposited data

How the results depend on the processing

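With 1 column, changes with the processing could not be set against a spread between animals. No paired analysis was possible because the data were 1 column. The ratio of differentiating to undifferentiated medians, 0.464, stayed below 1 with DMRT1 among the undifferentiated (0.452) or the differentiating markers (0.571), with means (0.591), with the highest entry of each gene alone (0.712), and without GFRA1 (0.712), ZBTB16 (0.684), SALL4 (0.452), KIT (0.571) or STRA8 (0.357). Adding DMRT1 to a side gave the same values as leaving out SALL4 (0.452) or KIT (0.571), because it only shifted the median. Those settings are therefore not separate checks. The ratio reversed to 6.14 with the longer lists and to 4.37 with means and DMRT1 among the differentiating markers. The latter was an alternative chosen after seeing the data. With the highest entry alone, DMRT1 was 6.49, GFRA1 0.444 and STRA8 0.342 RPKM, so that ZBTB16 passed GFRA1. GFRA3 at 0.692, GFRA2 at 0.531 and SPO11 at 0.522 RPKM, with 1 entry each, passed GFRA1 too. Scaled so that all RPKM sum to 1000000, where 1 entry held 30.04% of the sum, the values were 4.35 for DMRT1, 0.489 for GFRA1, 0.464 for ZBTB16, 0.265 for STRA8, 0.166 for KIT and 0.141 for SALL4. This scaling divides every gene by the same number, so the order could not change. Counting every biotype could change no value, because all entries of the 6 genes are protein-coding. With names as the table gives them, GFRA1, ZBTB16 and SALL4 kept their values and DMRT1, STRA8 and KIT had no entry. At a limit of 0.1 RPKM 6 of the 6 genes counted as present, where 88.5% of named genes did, and at 5 RPKM 1, where 35.9% did. Ranked by their highest entry among all protein-coding entries, the share of lower entries was 75.96% for DMRT1, 35.8% for ZBTB16, 27.4% for GFRA1, 24.4% for STRA8, 22.4% for KIT and 20.6% for SALL4. Among genes of 1 RPKM or more, 57.4% were lower than DMRT1, and the other genes fall outside that range. At 5 RPKM, also added after seeing the data, 2 other undifferentiated, 3 other differentiating, 2 retinoic acid and 0 niche genes passed. At 1 RPKM 4, 7, 8 and 1 of them passed. Of all named genes, 35.9% passed at 5 RPKM and 63.8% at 1 RPKM. The planned miRNA counts were not run. How many reads stood behind values such as 0.246 RPKM is unknown.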
